A study of Homo sapiens with 13 samples.

Results

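DLD-1 cells, an established human colorectal adenocarcinoma line, were transfected with an siRNA against Y14 or with a control siRNA, and the abundance of each gene's polyadenylated RNA was compared between both arms. The comparison covered the 17706 of 23886 gene symbols in the deposited table that had reads in either arm. It used 6 of the 13 samples of the series, all from its experiment 3. The siCtrl arm held 2 samples given the control siRNA. The siY14 arm held 4 samples, 2 with siRNA number 9 and 2 with siRNA number 10, which the authors' table pooled into 1 arm. Every sample was transfected with 50 nM siRNA and harvested 72 hours later. The labels do not say whether the samples of an arm were separate cultures, so each p-value below measures only the spread between these samples. Changes in exon use within a gene were not analysed here.

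Y14 is the protein made from RBM8A. Together with MAGOH it forms a heterodimer that locks the RNA helicase EIF4A3 onto spliced mRNA just upstream of exon junctions, and CASC3 completes this core of the exon junction complex. The complex stays on the mRNA until it is translated and takes part in splicing, export from the nucleus, translation and the decay of transcripts with premature stop codons. Transcripts of genes without introns pass through no splicing and so do not receive the complex in this way.

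RBM8A was listed at 0 in both arms, so the level of the targeted RNA was not measured and the knockdown could not be checked from this table. The partner genes were measured. MAGOH, with a mean normalised read count of 3853 in siCtrl, had 4197 in siY14. EIF4A3 had 15210 in siCtrl and 17102 in siY14. The log2 ratio of the siY14 mean to the siCtrl mean, the measure of difference used throughout, was 0.12 for MAGOH, 0.17 for EIF4A3, 0.17 for MAGOHB and -0.09 for CASC3. Their adjusted p-values in the authors' deposited table were 0.807, 0.667, 0.662 and 0.888, so no change of the partners was detectable.

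The table gives arm means with 15 significant digits. For 14542 genes (82.1%) exactly 1 set of whole reads per library, within the range searched, returned all of its means. The range was set around equal normalised counts in the siY14 libraries and was narrower at higher means. Genes whose siY14 libraries differ widely can therefore be missing from the values per library. These reads gave a normalised count in each of the 6 libraries, which are called siCtrl a and b and siY14 a, b, c and d here. The letters follow depth, estimated at 47189779 to 71626613 reads on genes, and are not replicate numbers of the labels. The 4 siY14 libraries stood in 2 tight pairs, a with c and b with d. Log2 differences between libraries were taken over the 8770 genes with recovered reads and an overall mean of at least 50. Their SD was 0.11 between a and c, 0.11 between b and d and 0.12 between both siCtrl libraries. Between the pairs it was 0.44 to 0.45. Libraries a and c differed from siCtrl with an SD of 0.36 to 0.37, and b and d with an SD of 0.63. MAGOH had normalised counts of 3822 and 3884 in siCtrl, 3845 and 3774 in a and c, and 4614 and 4555 in b and d. MAGOHB had 1947 and 2021 in siCtrl, 2012 and 2049 in a and c, and 2479 and 2387 in b and d. Both were thus above siCtrl in b and d but not clearly so in a and c. For EIF4A3 and CASC3 the siY14 reads were not recovered. Each siRNA was used in 2 samples, but neither pair can be assigned to siRNA 9 or 10 from these values. Tests that take the 4 siY14 libraries as independent give p-values that are too small if each pair came from 1 culture or 1 siRNA. Of the colon epithelial markers, 12 of 14 had an overall mean of at least 50, and their summed mean was 448763 in siCtrl and 332928 in siY14. Fibroblast markers summed to 116 and 64.9, with DCN and LUM at 0, endothelial markers to 33.5 and 29 and immune markers to 129 and 134, with CD3E at 0. The part of the lower epithelial sum in the results below was not tested, and in RNA from whole cultures fewer cells of a kind and less RNA per cell cannot be told apart.

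A gene is called higher or lower below where its adjusted p in the authors' deposited table, a Benjamini-Hochberg adjustment over all genes with reads, was at or under 0.05. By this rule 675 genes were higher and 947 lower after Y14 knockdown. Among the 13444 genes with an overall mean of at least 10, 671 (4.99%) were called higher and 942 (7.01%) lower. The median log2 ratio of those genes was 0.00 and the quartiles were -0.29 and 0.29. Of the 1622 called genes, 109 were at least 2-fold higher and 160 at least 2-fold lower. All 1254 called genes with recovered reads had all 4 siY14 libraries on 1 side of both siCtrl libraries, but so did many uncalled genes. In the 10289 of these genes whose reads could be solved, 31.1% had every siY14 library above both siCtrl libraries and 30.9% below. The limma-voom model fitted to the recovered reads called 1190 genes higher and 1285 lower. With the pairs entered as correlated libraries, whose estimated correlation was 0.909, it called 119 higher and 300 lower. Without siCtrl a it called 0 higher and 1 lower, and without siCtrl b 0 and 2, where the single control left is assumed to vary like the siY14 libraries. At an unadjusted p under 0.05 these 2 fits still held 2066 and 2428 genes. Of the 1245 genes called in the deposited table that limma-voom could test, it called 1146 in the same direction.

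EGR1, a zinc finger transcription factor induced soon after growth factor signals, had normalised counts of 5553 and 5461 in siCtrl a and b and of 2408, 2313, 2351 and 2263 in siY14 a, b, c and d. The siY14 libraries did not overlap with siCtrl and hardly differed between the pairs. EGR1 was 2.36-fold lower, the authors' deposited table giving it an adjusted p of 1.69e-10, and had a limma-voom log2 change of -1.24 ± 0.047 (SE, adjusted p = 0.00062). METTL7A, a methyltransferase-like protein of lipid droplets, stood at 706 and 705 in siCtrl and at 299, 263, 283 and 273 in siY14, 2.52-fold lower. JAZF1, a zinc finger protein of a chromatin acetyltransferase complex, fell from 493 and 470 to 169, 195, 182 and 198. ST3GAL5, which makes the ganglioside GM3, fell from 365 and 357 to 140, 134, 164 and 115.

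Other genes with large decreases were weakly expressed in these cells. FGFR3, a fibroblast growth factor receptor, had 192 and 189 normalised counts in siCtrl and 60, 61.1, 75.9 and 62.6 in siY14 a to d. CHRM1, a muscarinic acetylcholine receptor, had 90.5 and 117 in siCtrl and 39.2, 26.1, 26.8 and 29 in siY14. LGALS4, the galectin of intestinal epithelium and 1 of the 14 epithelial markers, had 99.5 and 124 in siCtrl and 25.6, 39.1, 35.7 and 32.4 in siY14. In these 3 genes the pairs of siY14 libraries overlapped with each other. A second pattern held for KLK7, a secreted serine protease, which had 99.5 and 99.4 in siCtrl, 40.8 and 41.3 in siY14 a and c, and 12.2 and 18.5 in b and d. The cytosolic sulfotransferase SULT1C3 had 185 and 154 in siCtrl, 76 and 75.9 in a and c, and 22 and 25.5 in b and d. For both genes all 4 libraries were below siCtrl and libraries b and d were the lowest. GSDMA, a gasdermin, BCAS1 and SULT2B1, the cholesterol sulfotransferase, had the same order. Their adjusted p-values of 0.0393, 0.0395 and 0.0283 in the authors' deposited table lay close to the limit. In the limma-voom fit their adjusted p-values were 0.0779, 0.0756 and 0.0677.

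The largest increase among genes with an overall mean of at least 50 was in RRH, a retinal-binding opsin. Its normalised counts were 29.6 and 40.8 in siCtrl and 192, 227, 209 and 242 in siY14 a to d, 6.18-fold higher, and the authors' deposited table gives it an adjusted p of 7.02e-17. The pairs lay close to each other. Whether these reads come from the opsin transcript itself or from a transcript that overlaps it was not tested. LRIG1, a membrane protein that restrains ERBB receptors and marks intestinal stem cells, rose from 100 and 96.8 to 204, 293, 207 and 236. CHPF, a chondroitin polymerising factor, rose from 2546 and 2476 to an arm mean of 5927, for which reads per library were not recovered. The other increases were mostly graded by pair. NMB, the peptide neuromedin B, had 14.3 and 12.7 in siCtrl, 52.8 and 52.4 in siY14 a and c, and 108 and 117 in b and d. CCDC85B, a coiled-coil repressor protein, had 74.4 and 77.7 in siCtrl, 207 and 187 in a and c, and 404 and 408 in b and d. SLC45A2, a melanosomal transporter, had 48.4 and 42.1 in siCtrl, 124 and 126 in a and c, and 228 and 236 in b and d. NEB, which encodes the giant muscle protein nebulin, had 43.9 and 43.3 in siCtrl, 96.8 and 112 in a and c, and 173 and 183 in b and d. TINCR, a non-coding RNA of differentiating epidermis, had 20.6 and 34.4 in siCtrl and 77.6, 147, 114 and 125 in siY14 a to d. The readthrough gene ZNF664-FAM101A rose from 27.8 and 21.7 to 64 to 75.9, but it shares exons with its neighbours, so its reads are uncertain. Of the 50 genes with the largest changes, 45 had recovered reads, and limma-voom called 40 of these. With the siY14 libraries correlated within pairs it called 16 of the 45, and without either siCtrl library 1.

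**Figure D1:**
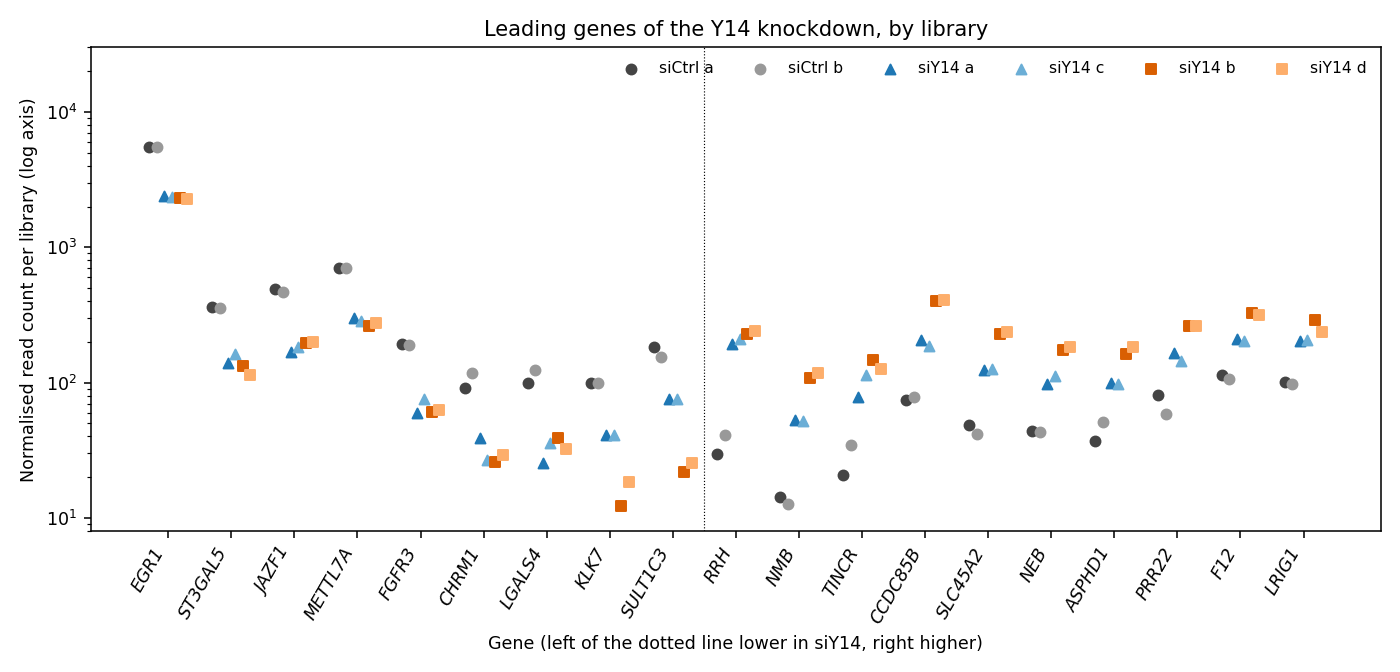
Normalised read counts of 19 genes in each library on a log axis, with circles for siCtrl, triangles for siY14 a and c and squares for siY14 b and d. In each gene the 4 siY14 libraries lie on 1 side of both siCtrl libraries, at 2263 to 2408 against 5461 and 5553 for EGR1, while in NMB or CCDC85B libraries b and d lie farther from siCtrl than a and c.

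The genes that fell and those that rose differed in base composition, which the first 60 coding bases of 3 of them illustrate, with G and C in capitals. They were taken from GENCODE 29 transcripts on GRCh38, each from the first coding exon. OSBPL6, an oxysterol-binding protein (chr2:178306185-178306244, plus strand, exon 3 of 25), was lower. CCDC85B (chr11:65890784-65890843, plus strand, its only exon) and PRR22 (chr19:5784601-5784660, minus strand, exon 1 of 3) were higher.
OSBPL6: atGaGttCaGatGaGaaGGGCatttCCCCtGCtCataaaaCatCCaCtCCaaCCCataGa
CCDC85B: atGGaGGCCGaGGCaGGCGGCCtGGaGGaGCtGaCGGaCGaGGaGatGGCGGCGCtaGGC
PRR22: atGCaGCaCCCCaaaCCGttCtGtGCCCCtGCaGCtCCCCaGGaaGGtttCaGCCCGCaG
G and C made up 27 of the 60 bases in OSBPL6, 43 in CCDC85B and 38 in PRR22. Over the whole transcript the GC content was 39.6% in OSBPL6, 67.7% in CCDC85B and 67.3% in PRR22. These 3 are picked examples, and not every gene with a large change followed this order. FGFR3 (62.0%) and CHRM1 (61.4%) were lower, while RRH (41.0%) and SLC1A3 (43.8%) were higher.

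This relation held across the table. Transcript structure was matched by symbol for 12422 of the 13444 genes with an overall mean of at least 10, and 11830 of them were protein-coding. In the eighth of coding genes with the lowest GC content, below 39.6%, the median log2 ratio was -0.30, and 7 of 1479 genes were called higher and 282 lower. In the eighth with the highest, from 61.2%, the median was 0.44, with 315 genes called higher and 15 lower. Across these genes, which are not independent replicates, Spearman's rho between GC content and the log2 ratio was 0.49. Each siY14 library showed the slope against the siCtrl mean. The lowest eighth had a median difference of -0.20 in a, -0.21 in c, -0.33 in b and -0.37 in d. The highest eighth had 0.28, 0.29, 0.55 and 0.57 in the same order. Both siCtrl libraries stayed within 0.013 of their mean in every eighth. These medians per library are over the genes with recovered reads. GC content of the promoter, from 250 bases before to 50 after the RefSeq start, gave a rho of 0.03 over 9472 genes, and its number of CpG dinucleotides 0.02. GC content can move with library preparation as well as with the RNA itself, and no values of library preparation per sample were used here, so their part in this slope was not tested. The class medians below are therefore given also with the GC trend removed where transcripts were matched, as the log2 ratio minus a running median over genes ordered by GC content, a step added after seeing the data.

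**Figure D2:**
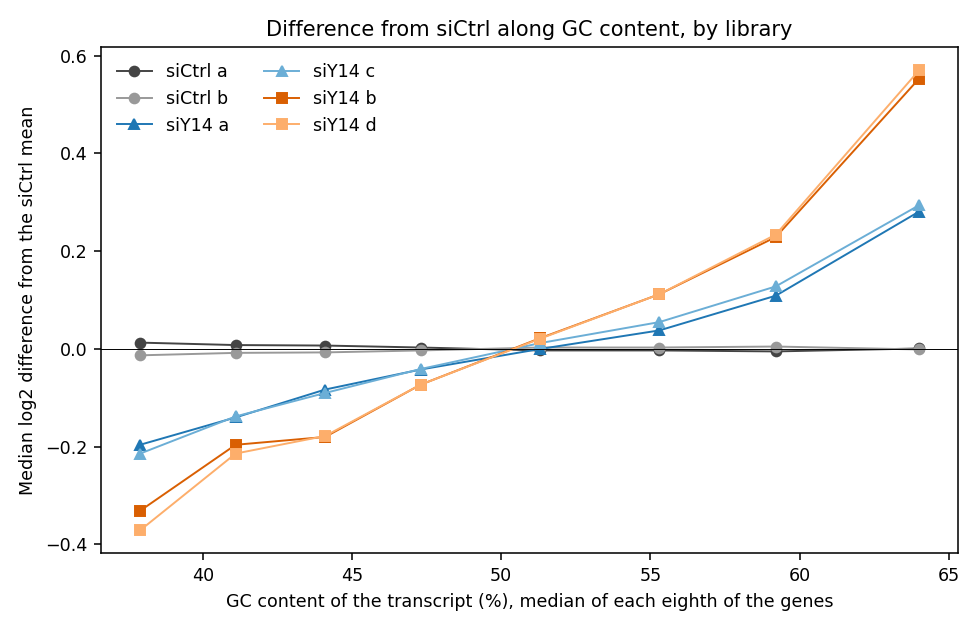
Median log2 difference of each library from the siCtrl mean (vertical axis) in 8 equal groups of protein-coding genes ordered by transcript GC content in percent (horizontal axis). The siY14 libraries run from -0.37 to -0.20 at the left to 0.28 to 0.57 at the right, with b and d steeper than a and c, while both siCtrl libraries stay near 0.

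Genes with many introns were lower. The 232 coding genes without an intron in the chosen transcript had a median log2 ratio of 0.23, with 14 called higher and 10 lower. Genes with 3 to 4 introns had a median of 0.06, with 12 to 19 of -0.06 and with 20 to 29 of -0.17. The 528 genes with 30 or more introns had a median of -0.28, with 14 called higher and 97 (18.4%) lower. GC content hardly differed over this range from 3 to 4 introns on, with medians between 47.8% and 49.1%. With the GC trend removed, the medians were 0.19 for genes without introns and -0.26 for those with 30 or more. With a trend along transcript length removed as well, which also took out a difference that long transcripts share, they were 0.19 and -0.21. In the single libraries the genes with 30 or more introns had medians of -0.12 and -0.13 in siY14 a and c and -0.36 and -0.34 in b and d. Genes without introns had 0.07 and 0.09 in a and c and 0.35 and 0.30 in b and d. Both ends thus lay on the same side in all 4 libraries, with a larger distance in b and d. Genomic span showed a similar order, from a median of 0.20 in the eighth of genes with the shortest span to -0.19 in that with the longest, and from 0.05 to -0.10 with the GC trend removed. Intron-rich genes also have long transcripts, and RNA integrity per sample was not used here, so its part in these medians was not tested.

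**Figure D3:**
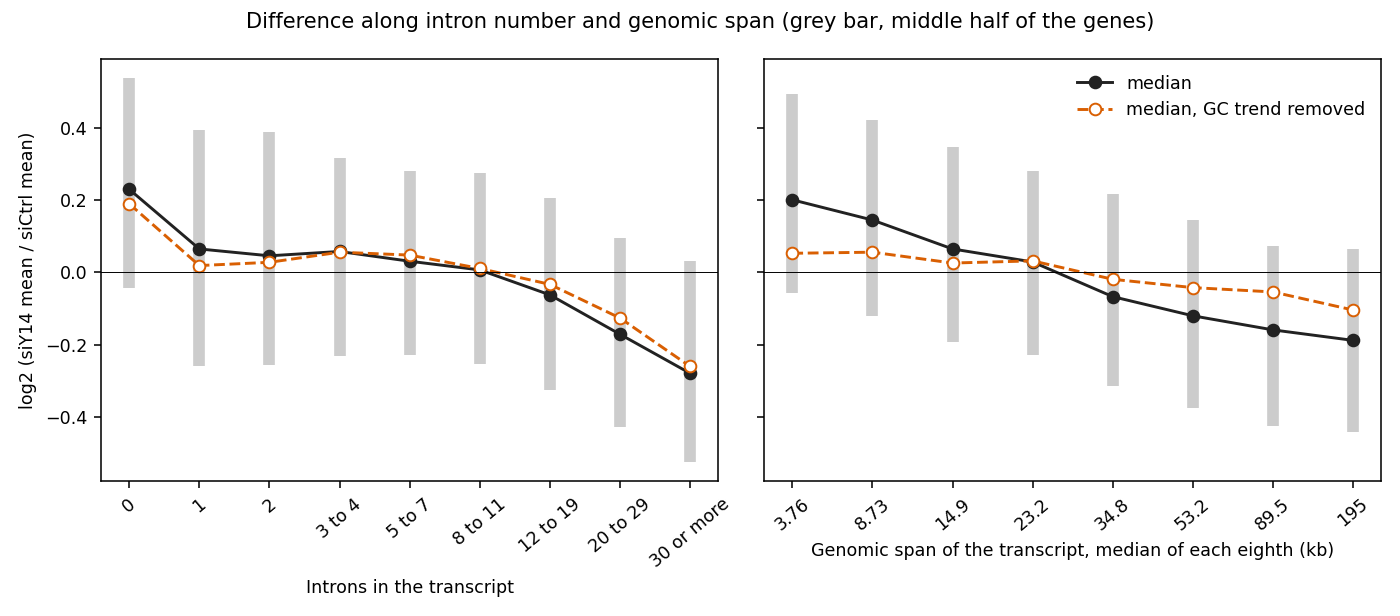
Median log2 ratio of siY14 to siCtrl (vertical axis) by the number of introns (left) and by genomic span in kb (right), with filled points for the ratio, open points for the ratio with the GC trend removed and grey bars from the lower to the upper quartile. The median falls from 0.23 without introns to -0.28 at 30 or more introns, and from 0.20 to -0.19 along span.

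A list of 45 measured genes that usually lack introns, compiled by name and overlapping with the group without introns above, had a median of 0.20. It was 0.09 with the GC trend removed and -0.06 with the span trend removed as well, so its direction turned with that step. H2AFX, the histone variant marked at DNA breaks, rose from 2730 and 2758 to 3646, 4522, 3631 and 4398. SOX12 rose from 1292 and 1322 to 1879, 2271, 1793 and 2295. CEBPD, a transcription factor of the acute phase response, rose from 185 and 134 to 251, 326, 233 and 285. These 3 were called higher and 0 were called lower. TAF7, a subunit of the general factor TFIID, had arm means of 10484 and 14737 with no call. SOX4 and CLDN4 had log2 ratios of 0.19 and 0.06 and were not called either.

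Beyond single genes, 77 gene classes were described by their measured members, those with an overall mean of at least 10. The median log2 ratio of 9 classes was at or under -0.2 and that of 7 was at or over 0.15, and 47 lay within 0.1 of 0. With the GC trend removed 5 classes were at or under -0.2 and 3 at or over 0.15, but these were not all the same classes. ABC transporters (from -0.12 to -0.24), ephrins and their receptors (from 0.12 to -0.22) and RNA exosome genes (from -0.06 to 0.17) passed a limit only with that step. Counts of called members are to be read against the 4.99% higher and 7.01% lower among all measured genes. These shares varied with gene structure. In the eighth of coding genes with the lowest GC content 0.473% were called higher and 19.1% lower. In the eighth with the highest, 21.3% were called higher and 1.01% lower. Among genes with 20 to 29 introns 2.55% were called higher and 12.5% lower. The class counts were not matched for GC content or introns, and no test was made of a class.

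**Figure D4:**
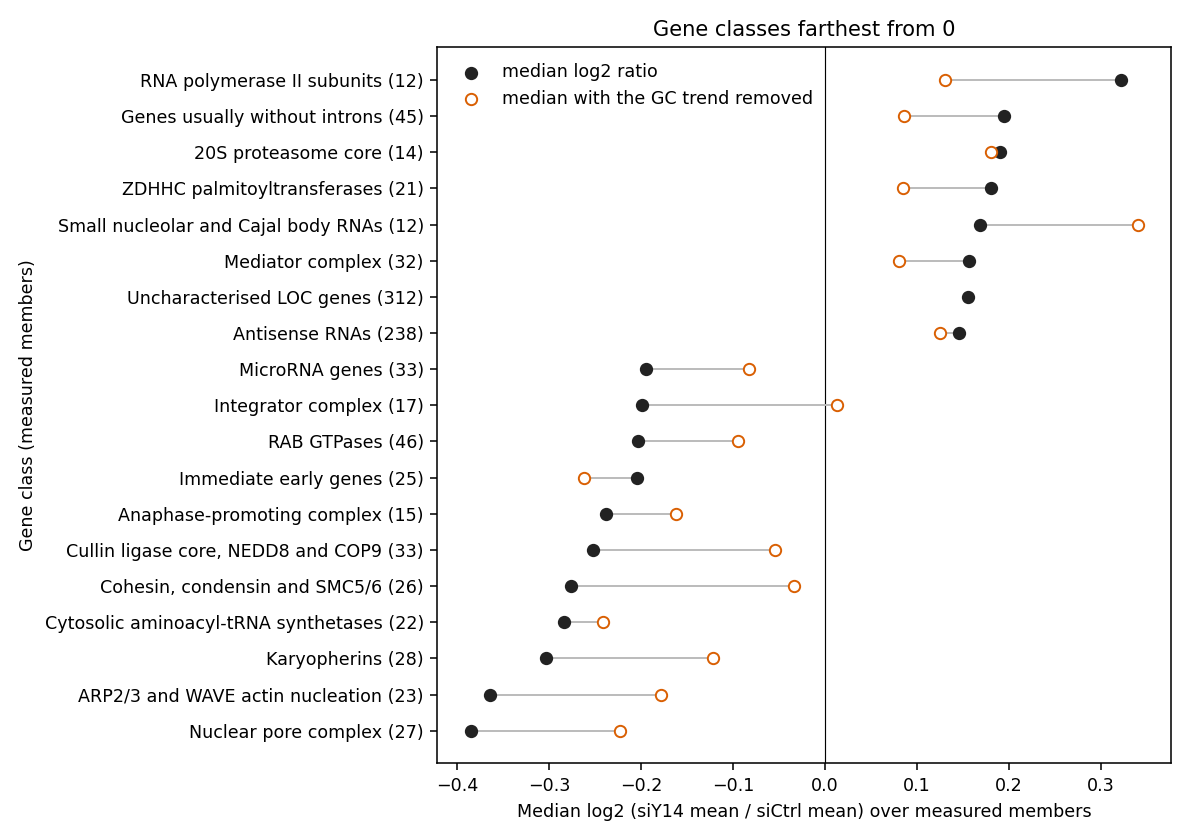
Median log2 ratio of siY14 to siCtrl (horizontal axis) over the measured members of the 19 classes farthest from 0 (vertical axis, number of members in brackets), with filled points for the ratio and open points for the ratio with the GC trend removed. Nuclear pore proteins stand lowest at -0.38 and RNA polymerase II subunits highest at 0.32, and most open points lie nearer to 0. The uncharacterised LOC genes have no open point because no transcript was matched.

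Cilium assembly genes held the largest share of decreases among the 77 classes. Primary cilia are built from a centriole by intraflagellar transport, and the BBSome carries membrane proteins into and out of them. Of 46 measured members 11 (23.9%) were called lower and 0 higher, although the median of the class was only -0.10 (-0.05 with the GC trend removed). DYNC2H1, the motor that returns cargo from the ciliary tip, had 378 and 352 normalised counts in siCtrl and 151, 160, 158 and 173 in siY14 a to d. BBS9, a BBSome subunit, fell from 620 and 654 to 391, 315, 417 and 322. TCTN1, a protein of the transition zone, fell from 590 and 613 to 410, 273, 431 and 261. The intraflagellar transport genes IFT172, IFT88 and IFT57 had log2 ratios of -0.81, -0.74 and -0.62, and the further BBSome genes BBS7, BBS2 and TTC8 of -0.59, -0.52 and -0.49. All of these were called. ARL6, which recruits the BBSome, was called lower as well, with -0.60. Other members of the same machinery lay above 0 without a call, such as BBS1 with 656 and 1116 and INPP5E with 835 and 1313 as arm means. Of the 11, IFT57 was not called by limma-voom, with an adjusted p of 0.0629, and limma-voom called 14 members lower in all.

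Centrosome and centriole genes showed a like count, with 8 of 59 (13.6%) called lower and 0 higher and a median of -0.11 (-0.07 with the GC trend removed). PCM1, the scaffold of centriolar satellites, fell from 10846 and 10634 to 5711, 4279, 5633 and 4166. CEP44 fell from 1183 and 1226 to 656, 451, 617 and 512, and CEP70 from 1959 and 1872 to 1144, 898, 1143 and 911. SASS6, which forms the cartwheel of a new centriole, fell from 2773 and 2551 to 1881, 1402, 1786 and 1408. PLK4, the kinase that starts centriole duplication, had a log2 ratio of -0.64 and was called lower. In the opposite direction, MZT2A had arm means of 674 in siCtrl and 1576 in siY14, with an adjusted p of 0.0939 in the deposited table of the authors. MZT2A and MZT2B are near-identical copies between which reads can be split.

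Nuclear pore proteins, which line the channel between nucleus and cytoplasm, had a median of -0.38 (-0.22 with the GC trend removed), with 22 of 27 members below 0 and 4 called lower. RANBP2, the cytoplasmic filament protein, had arm means of 20517 in siCtrl and 12156 in siY14. NUP93, of the inner ring, had 9508 and 6152, and NUP205 had 12788 and 9135. AAAS had 2888 and 3001 in the siCtrl libraries and 2340, 1614, 2276 and 1645 in siY14 a to d. NUP98 had 26317 and 23007 and was not called. Karyopherins, the carriers through the pore, had a median of -0.30 (-0.12 with the GC trend removed), with 4 of 28 called lower and 0 higher. IPO11 fell from 3776 and 3808 to 2760, 1856, 2756 and 1840. The tRNA exporter XPOT fell from an arm mean of 18564 to 11555, KPNA4 from 17525 to 11818 and IPO5 from 58141 to 40964. KPNB1 had 58930 and 37855 without a call. Reads per library were recovered for 5 of the 27 nuclear pore genes, and their median difference from siCtrl was -0.08 and -0.10 in siY14 a and c and 0.12 and 0.02 in b and d. Of 20 mRNA export factors, 3 were called lower and 0 higher, with 10 members above and 10 below 0 and a class median of 0.02 (0.10 with the GC trend removed). THOC2, the largest subunit of the THO complex that couples transcription to export, fell from 9898 to 4822. MCM3AP, the GANP export scaffold, fell from 8443 to 5120. NXT2 fell from 1709 and 1668 to 1178, 670, 1126 and 652.

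Actin nucleation by the ARP2/3 complex and its WAVE and WASP activators had a median of -0.36 (-0.18 with the GC trend removed). Of 23 members 20 were below 0, 5 (21.7%) were called lower and 0 higher. ACTR2 and ACTR3, the actin-related subunits of ARP2/3, fell from arm means of 47163 to 26372 and of 19742 to 13797. WASF1 fell from 1699 and 1685 to 1206, 974, 1139 and 984. WASL fell from 5716 and 5817 to 3880, 4196, 3795 and 4020, evenly in both pairs. ABI2 was the fifth, with a log2 ratio of -0.51. ARPC2, another ARP2/3 subunit, had 19623 and 19230 with no call.

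Cytosolic aminoacyl-tRNA synthetases, which load amino acids onto tRNA, had a median of -0.28, and of -0.24 with the GC trend removed, with 18 of 22 below 0, 4 (18.2%) called lower and 0 higher. LARS, the leucyl enzyme, fell from an arm mean of 9267 to 4652, a log2 ratio of -0.99. RARS, TARS and FARSB had log2 ratios of -0.53, -0.48 and -0.47 and were called. IARS had arm means of 40595 and 25822 without a call. Initiation and elongation factors of translation had a median of -0.10, which turned to 0.01 with the GC trend removed, with 1 of 45 called higher and 3 lower.

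Immediate early genes are transcribed at once after a stimulus, and several encode transcription factors or proteins that destabilise mRNA. Of 25 measured, 5 (20%) were called lower and 1 higher, with a median of -0.20 (-0.26 with the GC trend removed). After EGR1, the largest decrease was in ZFP36, a protein that binds AU-rich mRNA and recruits deadenylases, with 3052 and 3025 in siCtrl and 1921, 1819, 1905 and 1904 in siY14. IER3 had 5036 and 4899 in siCtrl and 3663, 2644, 3773 and 2549 in siY14. ATF3 had 3003 and 2918 in siCtrl and 2219, 1712, 2142 and 1678 in siY14. NR4A1, an orphan nuclear receptor, rose from 1264 and 1372 to 1751, 1982, 1847 and 1933. FOS had arm means of 449 and 311. The authors' deposited table gives it an adjusted p of 0.0727, and limma-voom one of 0.0147. The class thus held called members in both directions.

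Cohesin, condensin and SMC5/6 genes had a median of -0.28, which was -0.03 with the GC trend removed. Of 26, 3 were called lower, among them PDS5A, with arm means of 26923 and 13994, and SMC4, with 21487 and 12195. Among the 9 members with recovered reads limma-voom called 2 higher and 0 lower. The anaphase-promoting complex, the ubiquitin ligase that ends mitosis, had a median of -0.24 over 15 members, of -0.16 with the GC trend removed and of -0.24 with the span trend removed as well. CDC27, ANAPC4 and CDC23 were called lower, with log2 ratios of -0.62, -0.58 and -0.49. Its RING subunit ANAPC11 rose from 1463 and 1560 to 2133, 2328, 2088 and 2353, and its activator FZR1 from 1908 and 1869 to 2669, 3617, 2669 and 3671. Cullin ligase core, NEDD8 and COP9 genes had a median of -0.25 (-0.05 with the GC trend removed), with 4 of 33 called lower. Among them was COPS4, with 5757 and 5686 in siCtrl and 4181, 3268, 4104 and 3140 in siY14. Of the 16 cullin class members it could test, limma-voom called 3 higher and 3 lower. RAB GTPases had a median of -0.20 (-0.10 with the GC trend removed), with 1 of 46 (2.17%) called higher and 3 (6.52%) lower. RAB27B, which docks secretory vesicles, fell from an arm mean of 12536 to 6377 and RAB8B from 9181 to 5033, while RAB40C rose from 913 and 883 to 1421, 1807, 1438 and 1766. The Integrator complex had a median of -0.20 that was 0.01 with the GC trend removed, and none of its 17 members was called in the authors' deposited table. At an unadjusted p under 0.05 it held 1 higher and 2 lower, and limma-voom called 2 of 14 higher and 4 lower.

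**Figure D5:**
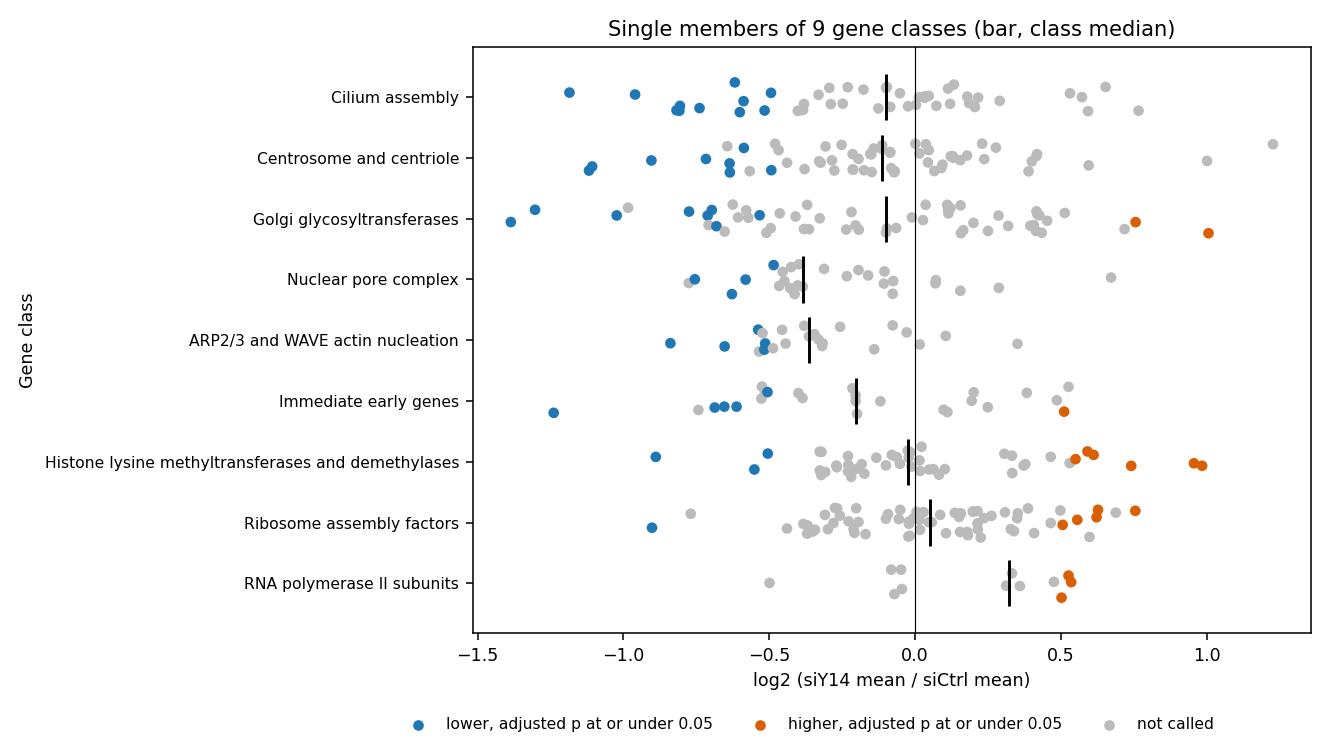
Log2 ratio of siY14 to siCtrl (horizontal axis) of each measured member of 9 classes (vertical axis), with blue points called lower, orange points called higher, grey points not called and a bar at the class median. The 11 called cilium genes are all on the left while the class median is -0.10, and the 3 called RNA polymerase II subunits are on the right of a median of 0.32.

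RNA polymerase II subunits had the highest class median, 0.32, which was 0.13 with the GC trend removed. Of 12 subunits 3 were called higher and 0 lower. Limma-voom could test 5 of the 12 and called 0 in either direction. POLR2A, the catalytic subunit that carries the repeat tail, rose from an arm mean of 15716 to 22260. POLR2E rose from 8816 to 12698 and POLR2L from 4735 to 6861. POLR2B, the second largest subunit, had 8382 and 5929 and was not called, so the subunits of 1 enzyme lay on both sides of 0. Mediator, which links transcription factors to the polymerase, had a median of 0.16 (0.08 with the GC trend removed) and 1 called member of 32, MED16, with 2309 and 2287 in siCtrl and 3412, 4123, 3590 and 4215 in siY14. The 20S proteasome core had a median of 0.19 and 0.18 with the GC trend removed, with 10 of 14 subunits above 0 and 0 called in either direction in the authors' deposited table. At an unadjusted p under 0.05 it held 2 higher and 0 lower. None of its subunits had recovered reads, so limma-voom could not test them. Histone lysine methyltransferases and demethylases had members called in both directions, 6 of 46 (13%) higher and 3 lower around a median of -0.02 (-0.01 with the GC trend removed). SUV39H1, which writes H3K9 methylation in heterochromatin, rose from 1343 and 1386 to 2400, 2897, 2401 and 3100. SUV420H2 had 219 and 215 in siCtrl and 345, 475, 329 and 535 in siY14. The H3K4 methyltransferases KMT2B, KMT2D, SETD1B and SETD1A had log2 ratios of 0.74, 0.61, 0.59 and 0.55 and were called. The H3K4 demethylase KDM5B fell from 1665 and 1824 to 1164, 741, 1140 and 722. Ribosome assembly factors had a median of 0.05 (0.11 with the GC trend removed) and 5 of 68 called higher and 1 lower, with IMP4 rising from an arm mean of 3409 to 5752 and HEATR1 falling from 13846 to 7411.

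Of 42 proteins of the major spliceosomal particles, 2 were higher (4.76%) and 1 lower (2.38%), with a median of 0.05 (0.09 with the GC trend removed). The one that fell was PRPF8, the scaffold at the centre of the spliceosome, from 48281 to 25960. LSM7 rose from 2340 and 2444 to 3195, 4042, 3286 and 4077, and SF3A2 from 2482 to 4265. Among the 10 minor spliceosome proteins 0 were called in the authors' deposited table, with 1 higher and 1 lower at an unadjusted p under 0.05, and limma-voom called 1 higher and 1 lower. Their median of 0.05 turned to -0.03 with the GC trend removed. Of 22 genes of the RNA exosome and its cofactors 2 (9.09%) were called higher and 2 (9.09%) lower, and their median of -0.06 turned to 0.17 with the GC trend removed. EXOSC5 rose from 1110 and 1065 to 1675, 2065, 1728 and 2187 and EXOSC4 had a log2 ratio of 0.61, while the cofactors PAPD5 and SKIV2L2 had -0.63 and -0.52. Of 30 genes of deadenylation, decapping and 5' decay 3 (10%) were called lower and 0 higher, with a median of -0.07 (-0.05 with the GC trend removed). XRN1, the cytoplasmic exonuclease that degrades decapped mRNA, fell from 3413 and 3437 to 2332, 1651, 2218 and 1562. PAN2, a deadenylase, fell from 927 and 868 to 639, 474, 654 and 474. Of 18 genes that write, read or erase m6A, with a median of 0.03 (0.14 with the GC trend removed), 2 (11.1%) were called lower and 0 higher. YTHDC2 and IGF2BP3 were called lower, the latter from 4085 and 3994 to 2692, 1255, 2656 and 1296.

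Enzymes that build sugar chains moved in both directions. Golgi glycosyltransferases had 8 of 56 (14.3%) called lower and 2 higher, with a median of -0.10 (-0.13 with the GC trend removed). Behind ST3GAL5 came ST6GALNAC2 with 124 and 148 in siCtrl and 46.4, 52.1, 62.5 and 59.1 in siY14, and B4GALT6, which makes lactosylceramide, with 1230 and 1227 in siCtrl and 700, 506, 697 and 517 in siY14. GALNT12, which starts mucin-type O-glycans, was called lower at a log2 ratio of -0.78. ST6GALNAC4 rose from 226 and 196 to 363, 464, 359 and 510 and B3GAT3 from 654 and 697 to 939, 1326, 974 and 1325. N-glycan precursor synthesis and trimming had 6 of 33 called lower and 2 higher, with a median of 0.06 (0.00 with the GC trend removed). ALG9 fell from 2610 and 2689 to 1903, 1348, 1824 and 1272, and the folding sensors UGGT2 and UGGT1 had log2 ratios of -0.71 and -0.62. PRKCSH and ALG1 had 0.51 and 0.54 and were called higher.

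Transporters were called in both directions. Of 248 measured symbols that begin as solute carriers, 20 were called higher and 12 lower, with a median of 0.03 with and without the GC trend. The pattern also took in 1 antisense RNA, SLC7A11-AS1, which is among the 20. SLC2A9, a urate transporter, rose from 115 and 120 to 214, 275, 218 and 318, and SLC19A1, the reduced folate carrier, from 1377 and 1454 to 2146, 3105, 2202 and 3198. SLC3A2 and SLC7A5, the chains of 1 amino acid exchanger, rose from arm means of 33635 to 58418 and of 42131 to 60179. SLC2A12 fell from 156 and 153 to 88.8, 61.9, 75.9 and 59.1, SLC41A2, a magnesium transporter, from 1187 and 1113 to 673, 447, 711 and 394, and SLC16A4 from 369 and 395 to 219, 159, 196 and 169. SLC12A2, a sodium, potassium and chloride carrier, had 60070 and 45888 and was not called. ABC transporters had a median of -0.12 (-0.24 with the GC trend removed) and 5 of 31 called lower and 2 higher, with ABCG2, the drug efflux pump, falling from 697 and 665 to 491, 382, 481 and 384 and ABCC3 from 980 and 1053 to 670, 644, 742 and 579. Of 21 palmitoyltransferases of the ZDHHC family 3 were called higher and 2 lower, with a median of 0.18 (0.09 with the GC trend removed). ZDHHC8, ZDHHC12 and ZDHHC4 rose, with log2 ratios of 0.76, 0.74 and 0.68, while ZDHHC21 and ZDHHC2 fell, with -1.50 and -0.62. FBXL19, an F-box protein that binds CpG islands, rose from 955 and 928 to 1610, 2331, 1644 and 2364, and F-box genes had 5 of 54 called higher and 2 lower around a median of -0.01 that turned to 0.08 with the GC trend removed. Kelch and BTB adaptors had 6 of 52 called higher and 2 lower and a median of 0.08 (0.03 with the GC trend removed), with KLHL35, KLHL26 and KLHL25 at 0.90, 0.84 and 0.83.

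Antisense RNAs had a median of 0.15 (0.13 with the GC trend removed), with 4 of 238 (1.68%) called higher and 2 (0.84%) lower. With an overall mean of at least 50 required, the median was 0.09. The 234 members with recovered reads had a median difference from siCtrl of -0.01 and -0.05 in siY14 a and c. In b and d it was 0.27 and 0.30, so only that pair lay above siCtrl. PARD6G-AS1 rose from 100 and 120 to 223, 245, 216 and 248 and SLFNL1-AS1 from 115 and 110 to 194, 273, 208 and 269. HOXB-AS3 fell from 1279 and 1183 to 629, 711, 600 and 709. Uncharacterised LOC genes had a median of 0.16, with 12 of 312 called higher and 10 lower. Their median difference from siCtrl was 0.01 and 0.03 in siY14 a and c and 0.23 and 0.29 in b and d. Long intergenic RNAs had a median of -0.03 (0.00 with the GC trend removed). Transcribed pseudogenes with introns kept had a median of 0.32 over 107 genes, 10 called higher and 1 lower, and of 0.27 with the GC trend removed. Their reads can be shared with the parent genes. In a stranded kit sense and antisense reads can be told apart only if the counting used the strand, which is not given in the sources used here.

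Of 33 measured microRNA genes, 5 were called lower and 0 higher around a median of -0.20 (-0.08 with the GC trend removed), and 3 of these 5 belong to the miR-548 family, whose members arose from a repeat and lie inside many longer transcripts. The libraries were made from polyadenylated RNA, so these reads come from long transcripts over the hairpins and not from mature microRNAs. The mature sequences, from RefSeq on GRCh38.p14 and with the seed at bases 2 to 8 in capitals, are shown for reference only.
hsa-miR-548ac: cAAAAACCggcaauuacuuuug
hsa-miR-548n: cAAAAGUAauuguggauuuugu
hsa-miR-548ap-5p: aAAAGUAAuugcggucuuu
hsa-miR-196a-5p: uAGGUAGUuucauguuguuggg
The 3 miR-548 seeds are all rich in A, and no 2 of the 4 printed seeds are the same. MIR548AC had 117 and 106 in siCtrl and 82.4, 46.4, 82.6 and 52.1 in siY14 a to d. MIR548N had 143 and 149 in siCtrl and 95.2, 46.4, 99.3 and 48.7 in siY14. MIR548AP had 192 and 172 in siCtrl and 102, 39.9, 109 and 35.9 in siY14. In all 3 genes libraries b and d were the lowest, and limma-voom adjusted p-values were 0.072, 0.0593 and 0.0533. MIR196A1, a locus within the HOXB cluster, had 60.9 and 37 in siCtrl and 16.8, 17.1, 17.8 and 12.7 in siY14, even in both pairs. MIR210HG, the host gene of a hypoxia-induced microRNA, had 63.6 and 75.2 in siCtrl and 38.4, 30.1, 30.1 and 25.5 in siY14.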

How the data were processed

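RNA of 6 libraries was selected by poly-A tail and prepared with a stranded kit, per the labels' protocols. The tools named in the submitters' processing notes are DESeq, HTSeq, HISAT2, TopHat2, SAMtools and Bowtie, with hg19 as the build; their versions and order are not given in the sources used here. For each arm the authors deposited a mean normalised count (a signal), a fold ratio, a log2 fold change, and p-values with adjusted p-values. The 15 digits of the means allowed whole reads per library to be solved for genes with a siY14 mean up to 5000. On simulated data 3561 of 3741 genes were recovered, 0 wrongly, while 16 of 242 altered means were also accepted. The simulated libraries varied independently and formed no pairs, so these numbers do not cover genes whose pairs differ strongly. Log2 ratios were computed from the arm means. limma 3.58.1 in R 4.3.3 (voom on the recovered reads) tested 10289 genes with an overall mean of at least 10, with Benjamini-Hochberg adjustment; on simulated independent libraries it called 90 of 100 genes changed 2-fold, 100 of 100 changed 4-fold and 18 unchanged ones. GC content, introns, length and span came from 1 GENCODE 29 transcript per symbol. Named genes were the 25 largest changes per direction among called genes with an overall mean of at least 50, and per class up to 4 called genes per direction and up to 3 uncalled; further genes were chosen after their values were seen. The classes, members and lists were chosen with earlier results of these data known. Library columns of single samples numbered 0. Alternatives covered normalisation, filters, pseudocounts, each library left out, correlated pairs and trends in GC, span and length. Results of some genes are not reported here.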

Additional observations from a re-analysis of the deposited data

Results flagged for a closer look

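Among 122 gene counts and class medians with recovered reads, 3 had 1 siY14 library far from the others of its arm by Dixon's criterion for 4 values. Chance marks about 1 in 20 groups of 4 independent values. The siY14 libraries stood in pairs, so this rate does not hold for them. FGFR3 had a normalised count of 75.9 in siY14 c and of 60 to 62.6 in the others. HNRNPU-AS1 had 745 in siY14 b, with the next library at 722. The anaphase-promoting complex had a median log2 difference from siCtrl of -0.03 in siY14 c, against -0.09 to -0.11 in the others.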

How the results depend on the processing

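Adjusting the deposited p-values over fewer genes, or setting the direction against the median gene, left the numbers called within 1.5 times of 675 higher and 947 lower. The limma-voom model called 1190 higher, and the cause of this difference from 675 was not tested. Its own numbers, 1190 higher and 1285 lower, stayed within 1.5 times with other size factors, another filter on low counts, the log2(normalised count + 1) scale or the GC trend removed. With the siY14 libraries correlated within pairs they were 119 and 300. Leaving out 1 library gave 0 to 1497 higher and 1 to 1551 lower, the lowest without siCtrl a and the highest without siY14 a. Without siY14 b they were 551 and 707 and without siY14 d 472 and 624. Without b and d together, an alternative chosen after seeing the data, 3140 were higher and 3266 lower, and without a and c together 4170 and 3820. Each of these fits kept only 1 tight pair of siY14 libraries. The difference between the pairs was thus missing from its spread, and the larger numbers are no sign of a firmer result. All 45 of the largest changes with recovered reads had the same direction in every limma-voom fit that could test them. In all 45 genes every siY14 library already lay on the same side of both siCtrl libraries. Leaving out libraries could therefore not turn a direction, and this agreement is no test of robustness. With correlated pairs 16 of the 45 were called. With the GC trend removed 5 classes instead of 9 had a median at or under -0.2 and 3 instead of 7 one at or over 0.15. With the span trend removed too 6 were at or under -0.2 and 2 at or over 0.15. The classes beyond these limits were not all the same with and without the trends, and some passed a limit only once a trend was removed. The Integrator median turned to 0.013 with the GC trend removed, and that of genes usually without introns to -0.055 with the GC and span trends removed. No paired analysis was possible because the deposited columns carry no replicate numbers. Depth limits the weakest genes: at an overall mean of 10 a 2-fold change rests on few reads per library.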
